A study of Mus musculus with 25 samples.

Results

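Cohesin is the ring-shaped protein complex that holds sister chromatids together, and the 10 genes described here encode its mitotic and meiotic subunits and an enzyme that fixes it on DNA. They were chosen by name, not by their values, as the rows of Rec8, Rad21l, Smc1b, Stag3, Smc1a, Smc3, Rad21, Stag1, Stag2 and Esco2 in the count tables of mouse testis cells, and made up 10 of the 29244 genes listed. Single cells had been captured by Drop-seq, which pairs cells with barcoded beads in droplets and counts each captured molecule once, near its 3′ end, by a unique molecular identifier (UMI). The 25 libraries held 48642 barcodes and 65063387 UMIs. The question was where along spermatogenesis the mitotic subunits give way to the meiotic ones, and whether the mutant testes differ in them.

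The wild-type group was 11 whole testes of C57BL/6 males aged from 3 months 1 day to 9 months 14 days, of which replicates 1 and 2 were dissociated with enzymes. The 6 Mlh3 libraries came from Mlh3-/- males of a B6;129 background by the labels (a B6.129 line in the study's methods) aged 2 months 21 days to 8 months 30 days, which lack a mismatch repair protein needed for crossovers. The 2 Cul4a libraries came from Cul4a-/- males of a B6;129 background, which lack the scaffold of a ubiquitin ligase, aged 1 month 18 days and 1 month 21 days by the sample labels. The 2 CNP libraries came from C57BL/6 males with the CNP eGFP BAC TRAP transgene, in which the regulatory region of Cnp drives a tagged ribosomal protein, aged 2 months 14 days and 2 months 16 days by the labels. The study's own list gives the ages of these last 2 strains the other way round. Sorted spermatogonia were GFP-positive cells from 7-day-old Pouf51-EGFP mice (the label's spelling, a B6;CBA line in the study's methods), with the testes of 5 litter mates pooled. This library and wild-type replicates 1 and 2 were dissociated with enzymes, and all others mechanically. Sorted primary spermatocytes, secondary spermatocytes and spermatids came from wild-type males aged 2 months 21 days and were gated by Hoechst stain. Each sorted population was 1 library. Wild-type replicates 1 and 3, Mlh3 replicates 1 and 2 and all sorted libraries but the spermatogonia were sequenced on MiSeq, the rest on HiSeq. Mlh3 and Cul4a libraries differ from wild-type in background as well as genotype, and these cannot be told apart. The Cul4a and CNP males were all younger than every wild-type male, so age and genotype cannot be told apart there, whereas Mlh3 ages overlap those of wild-type. Mlh3 replicates 2 and 3 have the same age on their labels, and whether they came from 1 male is not given in the sources used here. Another mutant strain of the study was not analysed here.

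In dividing cells the cohesin ring is built from the ATPases SMC1A and SMC3, closed by the kleisin RAD21 and bound by STAG1 or STAG2. Germ cells entering meiosis add subunits of their own: SMC1B beside SMC1A, STAG3 beside STAG1 and STAG2, and REC8 and RAD21L beside RAD21, which form the chromosome axis and keep sister centromeres together through the first meiotic division. ESCO2 is the acetyltransferase that makes cohesin cohesive during DNA replication. SMC3 has no meiotic paralog and is shared by all forms of the ring.

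The genes lie on 7 chromosomes of GRCm38 and all are protein coding in the GENCODE vM21 annotation. Rec8 spans chr14:55618037-55625395 on the plus strand, Rad21l chr2:151645404-151668533 on the minus strand, Smc1b chr15:85064689-85131964 on the minus strand and Stag3 chr5:138280240-138312393 on the plus strand. Of the mitotic members, Smc3 spans chr19:53600398-53645833, Rad21 chr15:51962240-51991747, Stag1 chr9:100597798-100959375 and the acetyltransferase gene Esco2 chr14:65819038-65833994. Smc1a (chrX:152016428-152062694) and Stag2 (chrX:42149317-42277185) are both on the X chromosome, which is silenced in pachytene spermatocytes. No other annotated gene overlaps the 3′ end of a member. To show where the meiotic subunits start, the 250 bases before and 10 bases after the RefSeq start (GRCm38.p6) of each are given 5′ to 3′ on the gene's strand, with an E-box (CACGTG) or an E2F-type motif (TTCCCGC) in capitals. The windows are chr14:55617916-55618175 for Rec8, chr2:151668524-151668783 for Rad21l, chr15:85131948-85132207 for Smc1b and chr5:138280259-138280518 for Stag3.
Rec8 promoter: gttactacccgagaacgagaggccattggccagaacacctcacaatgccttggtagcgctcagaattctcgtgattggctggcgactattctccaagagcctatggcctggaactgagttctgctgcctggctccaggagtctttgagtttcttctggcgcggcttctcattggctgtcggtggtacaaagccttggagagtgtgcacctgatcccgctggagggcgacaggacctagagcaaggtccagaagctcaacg
Rad21l promoter: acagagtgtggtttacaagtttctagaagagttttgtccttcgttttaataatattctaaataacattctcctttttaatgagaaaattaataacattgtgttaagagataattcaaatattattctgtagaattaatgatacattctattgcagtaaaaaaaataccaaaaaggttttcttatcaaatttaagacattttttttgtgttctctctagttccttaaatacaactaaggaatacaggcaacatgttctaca
Smc1b promoter: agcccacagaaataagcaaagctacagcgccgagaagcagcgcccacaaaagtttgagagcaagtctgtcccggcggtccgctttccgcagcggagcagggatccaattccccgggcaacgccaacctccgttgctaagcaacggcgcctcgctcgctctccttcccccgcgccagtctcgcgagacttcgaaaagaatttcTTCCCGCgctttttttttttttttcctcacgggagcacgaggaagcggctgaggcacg
Stag3 promoter: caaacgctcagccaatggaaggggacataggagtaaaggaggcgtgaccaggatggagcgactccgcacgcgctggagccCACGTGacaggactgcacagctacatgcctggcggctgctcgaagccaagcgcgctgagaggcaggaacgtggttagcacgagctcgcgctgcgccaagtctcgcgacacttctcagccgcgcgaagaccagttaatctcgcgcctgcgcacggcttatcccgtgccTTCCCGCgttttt
Of the 4 meiotic promoters, those of Smc1b and Stag3 hold the E2F-type motif, 48 and 3 bases before the start, and that of Stag3 also holds the E-box, 170 bases before it. In a window of 300 bases (250 before and 50 after the start) searched on both strands, TTCCCGC occurred in 4.6% of 32851 RefSeq promoters and in 4 of the 7 members with an entry, the others being Stag1 (16 bases before the start) and Smc1a (39 bases after it). CACGTG occurred in 7.15% of promoters and 1 member. Neither the motif CNCCTCAG, of the type bound by STRA8, the retinoic acid target that starts meiosis (7.942% of promoters), nor the CRE motif TGACGTCA (1.79%) occurred in the 7 windows. These matches describe letters only.

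All 36619 cells that passed the filters were clustered without the 10 genes, and clusters were named from listed markers of other genes. In wild-type testes this gave 29 cells like spermatogonia, 107 like leptotene/zygotene and 546 like pachytene spermatocytes, 2524 meiotic division-like cells, and 2171 round and 3375 elongating spermatid-like ones, while 16065 of 25052 cells (64.13%), with a median of 531 UMIs, fell in clusters that kept no name. The markers of division-like cells are genes that the study lists for diplotene, the stage after pachytene, and the divisions together. No diplotene class was named, so division-like cells may include late prophase cells, and the 2 were not told apart. No doublets were called or removed. Of 48081 distinct barcode sequences, 430 occurred in more than 1 library, at most 27 in any pair. The sorted spermatogonia matched their label, with 212 of 224 filtered cells spermatogonia-like. The sorted primary spermatocytes did not: 157 of 188 cells were red blood cell-like (led by hemoglobin genes) and 9 pachytene-like. The library labelled secondary spermatocytes held 75 elongating and 39 round spermatid-like cells of 154, and the spermatids 210 elongating and 50 round spermatid-like cells of 291. Filters on cells removed unlike parts of the strains: 24.9% of 11210 Mlh3 barcodes were kept, against 95.9% of 26123 wild-type, 95.2% of 5736 Cul4a and 56.2% of 4381 CNP ones. The mt-Rnr2 filter, on the level of a mitochondrial ribosomal RNA, took 71.0% of the Mlh3 barcodes that reached it and 2.11% of the wild-type ones, and mitochondrially encoded genes gave 4.55 to 13.4% of UMIs in the 6 Mlh3 and 0.517 to 1.72% in the 11 wild-type libraries, without overlap. Class shares in Mlh3 testes are shares of the kept cells. Among them, 931 of 2786 (33.42%) were pachytene-like, 579 (20.78%) Leydig-like and none round or elongating spermatid-like. With the mt-Rnr2 filter left out, 695 of 9606 (7.24%) were pachytene-like, 1650 (17.2%) Leydig-like and again none round or elongating spermatid-like. The targeted genes did not check the labels over whole testes, and a 3′ count can lie outside a deleted part. Mlh3 was at 26.2 to 86.5 CPM (UMI counts scaled to the total of the library or class) in whole Mlh3 libraries and 10.7 to 72.9 CPM in wild-type, which overlap. Cul4a was at 54.5 and 49.0 CPM in the libraries labelled Cul4a-/- and at 5.6 to 45.7 CPM in wild-type. The targeted gene was thus higher in both than in any wild-type library, and the difference was not called (log2 fold change 0.67, adjusted p = 0.223 in edgeR). It was at 109 to 180 CPM in the Mlh3 libraries, so its level over whole testes differs between strains for other reasons and does not check the label. Cul4a below means these labelled libraries, and any direction given for them rests on the label, not on this level.

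Spermatogonia expressed the mitotic ring in full, and already 1 meiotic ATPase. In the sorted spermatogonia, with 1168498 UMIs, the mitotic kleisin gene Rad21 gave 507 UMIs (434 CPM), Smc3 950 (813 CPM), Smc1a 264 (226 CPM, 95% exact Poisson interval 199.5 to 255), Stag1 324 (277 CPM), Stag2 140 (119.8 CPM) and Esco2 439 (375.7 CPM). Of the meiotic genes, Smc1b gave 809 UMIs (692 CPM, 645 to 742), Stag3 93 (79.6 CPM), Rad21l 16 (13.7 CPM) and Rec8 13 (11.1 CPM). These intervals cover counting error only. Within that library, the 212 spermatogonia-like cells held Smc1b at 728.5 CPM and the 9 Sertoli-like cells held 1 Smc1b UMI among 57985. Rad21, by contrast, gave 19 UMIs in those 9 Sertoli-like cells and Smc1a 15.

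Adult testes gave few spermatogonia-like cells, and no wild-type library reached 10 of them. The 5 libraries that did, with 13 to 18 cells each, held Smc1b at 520 and 449 CPM (Cul4a replicates 1 and 2) and at 630, 804 and 997 CPM (Mlh3 replicates 2, 5 and 6). Smc1a was at 94.5 and 49.9 CPM in the Cul4a libraries and at 238, 124 and 0 CPM in the Mlh3 libraries, and Rad21 was at 236, 274, 272, 526 and 279 CPM in the same order. Both mitotic subunits were thus detected in spermatogonia-like cells of both strains, Smc1a in 4 of 5 libraries. In the 29 wild-type cells, Rec8 and Rad21l were at 0 of 45343 UMIs, which allows up to 66.2 CPM each (3 UMIs), too coarse a limit to set against the sorted cells.

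**Figure D1:**
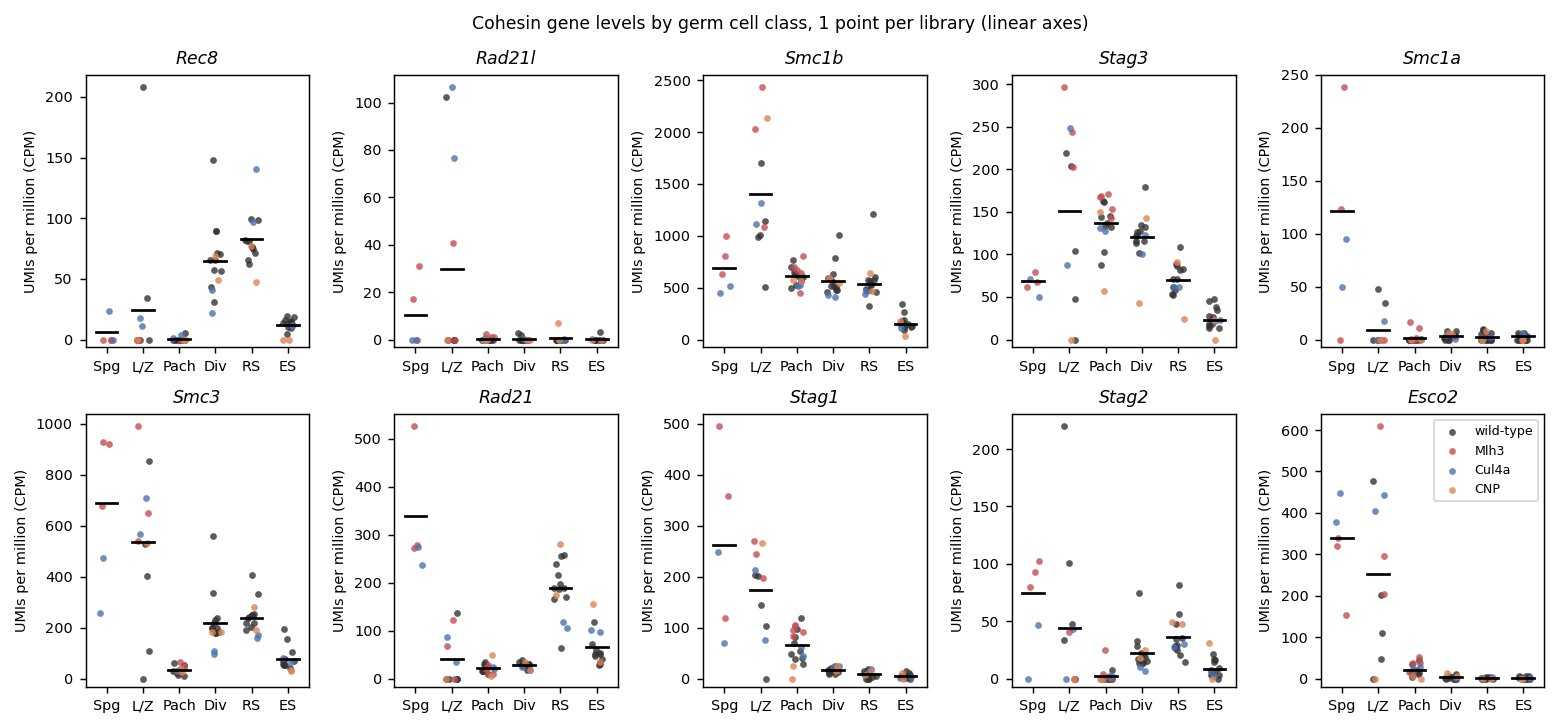
Levels of the 10 cohesin genes in CPM (linear axes) in the 6 germ cell classes, from spermatogonia-like (Spg) through leptotene/zygotene- (L/Z), pachytene- (Pach) and division-like (Div) to round (RS) and elongating spermatid-like cells (ES), with 1 point per library with at least 10 cells of the class, coloured by strain, and a line for the mean over these libraries. In the wild-type points Rec8 is near 0 in pachytene-like cells and between 62.4 and 99.3 CPM in round spermatid-like cells, and Smc1a is at 0 in all 9 pachytene-like sums.

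The meiotic kleisins had their highest levels, pooled over wild-type cells, in different classes. Rad21l, a kleisin of early meiotic prophase, was found mainly in leptotene/zygotene-like cells: over the 4 strains their 255 cells held 18 UMIs (54.7 CPM, 95% interval 32.4 to 86.5), against 2 UMIs (6.94 CPM) in spermatogonia-like and 7 (0.767 CPM) in pachytene-like cells. Among the 5 wild-type libraries with at least 10 leptotene/zygotene-like cells, Rad21l was at 102 CPM in replicate 11 and at 0 in replicates 4, 6, 8 and 10. Both Cul4a libraries held it, at 76.4 and 106.5 CPM, and of the Mlh3 libraries replicate 5, at 40.7 CPM. It was at 0 of 1237503 UMIs in wild-type pachytene-like cells, which allows up to 2.42 CPM. Among wild-type cells, 4 of 107 leptotene/zygotene-like ones held a Rad21l UMI, against 1 of 111 Sertoli-like ones, which should lack it.

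Rec8, the kleisin whose cleavage separates homologs and then sister chromatids, was close to absent from pachytene-like cells and higher in division- and round spermatid-like cells. In the 9 wild-type libraries with pachytene-like sums it was at 0 in 8 and at 5.54 CPM in replicate 4 (1 UMI in all, 0.808 CPM pooled, 95% interval 0.0205 to 4.50). In meiotic division-like cells it ranged from 30.9 to 148 CPM (median 65.9, mean 71.6 ± 30.6, SD, n = 11), in round spermatid-like cells from 62.4 to 99.3 CPM (median 76.6, 78.9 ± 11.6) and in elongating spermatid-like cells from 4.59 to 19.0 CPM (median 14.7, 13.5 ± 4.19). Every division- and round spermatid-like value lay above every pachytene-like and elongating spermatid-like value. Before pachytene the counts were few: the 5 leptotene/zygotene-like sums were at 0, 208, 0, 0 and 34.1 CPM in replicates 4, 6, 8, 10 and 11, and all 107 cells held 4 UMIs. At 1 UMI or more, Rec8 was seen in 11.4% of division-like cells (median 1510.5 UMIs per cell) and 13.7% of round spermatid-like cells (1433 UMIs), against 0.183% of pachytene-like cells (1578.5 UMIs). The part of depth in these shares was not tested. Sertoli-like cells, which should lack Rec8, held it in 2.70% of 111 cells (median 616 UMIs) and at 26.2 CPM pooled (3 UMIs, 95% interval 5.41 to 76.6), and elongating spermatid-like cells in 1.42% (696 UMIs). Counts of meiotic genes in such somatic cells are called background below, and their source was not tested. The elongating spermatid-like mean lies within the Sertoli-like interval and was not told apart from it, while the pachytene-like interval (up to 4.50 CPM) lies below it. The wide Sertoli-like interval also holds the pooled leptotene/zygotene-like level (34.7 CPM), the median of division-like cells and that of round spermatid-like cells. With the Cul4a and CNP libraries added, Sertoli-like cells held 35.2 CPM (13 UMIs, 18.7 to 60.1), an interval that holds the division-like level of the same libraries (52.1 CPM, 47.7 to 56.8) but not the round spermatid-like one (99.2 CPM, 93.0 to 106).

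Rad21, the kleisin of dividing cells, followed a different course. In wild-type leptotene/zygotene-like cells it was at 136 CPM in replicate 11 and at 0 in the other 4 libraries, in pachytene-like cells at 9.10 to 35.8 CPM (median 23.4, 22.3 ± 8.48, n = 9) and in division-like cells at 17.9 to 39.5 CPM (median 29.8, 29.1 ± 6.09, n = 11). Round spermatid-like cells held 63.8 to 258 CPM (median 190, 194 ± 53.7, n = 11), above all pachytene- and division-like values. Elongating spermatid-like cells held 29.5 to 119 CPM (median 51.5, 54.1 ± 25.3) and overlapped both neighbours.

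Smc1b, the meiotic ATPase gene, was the most counted member in every named germ cell class of the whole testes, though not in the sorted spermatogonia, where Smc3 was. In wild-type libraries it lay at 504, 988.5, 1009, 1144.5 and 1704 CPM in leptotene/zygotene-like cells (replicates 10, 4, 8, 6 and 11), at 495 to 769 CPM in pachytene-like cells (median 609, 616 ± 85.1, n = 9) and at 459 to 1007 CPM in division-like cells (median 516, 593 ± 166, n = 11). Round spermatid-like cells held 328 to 1212 CPM (median 531, 576 ± 224, n = 11) and elongating spermatid-like cells 92.5 to 343 CPM (median 148, 169 ± 73.2, n = 11). The 3 middle classes overlapped almost wholly, and the elongating class sat lowest, with only its top value inside the range of round spermatid-like cells. Cells that should lack the gene also held counts of it: Sertoli-like cells of the same 11 testes held Smc1b at 297 CPM pooled (34 UMIs, 206 to 415) and red blood cell-like cells at 259 CPM (5 UMIs). The source of these counts was not tested. The median in elongating spermatid-like cells lies below both, so their value is not read as expression.

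Smc1a, its mitotic counterpart, was not detected in wild-type pachytene-like cells. It was at 0 in all 9 wild-type pachytene-like sums, which together allow up to 2.42 CPM, and at 0 in 8 of the 11 leptotene/zygotene-like sums of the 4 strains (the others at 17.7, 34.1 and 48.0 CPM). The leptotene/zygotene-like sums were small, so a 0 there sets only a coarse limit. In division-like cells it was at 0 to 8.10 CPM (2.84 ± 2.84, n = 11), then at 0 to 9.60 CPM in round and 0 to 6.44 CPM in elongating spermatid-like cells, ranges that overlapped throughout. The division-like mean is close to the pachytene-like limit, so a return is not read from these levels alone. Stag2, the other X-linked member, was also at 0 in 8 of 9 pachytene-like sums, with 7.80 CPM in replicate 7. It lay at 0 to 220 CPM in leptotene/zygotene-like cells (median 48.0, n = 5), at 13.4 to 74.6 CPM in division-like cells (median 18.9) and at 14.5 to 81.4 CPM in round spermatid-like cells (median 29.8). X-linked genes as a whole gave 1.98% of UMIs in wild-type spermatogonia-like, 1.69% in leptotene/zygotene-like, 0.136% in pachytene-like (0.103% to 0.203% over 9 libraries), 0.657% in division-like and 1.55% in round spermatid-like cells, over 1533 X-linked genes. Stag2 went the same way as this share into pachytene-, division- and round spermatid-like cells, but fell toward elongating spermatid-like cells, where the share did not. Smc1a was not called into round spermatid-like cells, where the share rose (log2 fold change -0.02 with TMM and -0.22 with library totals). Whether either member moved more than its chromosome was not tested.

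Stag3 and Stag1, the meiotic and the autosomal mitotic STAG genes, moved apart. Stag3 lay at 88.0 to 163 CPM in pachytene-like cells (median 136, 134 ± 24.7, n = 9) and at 102 to 179 CPM in division-like cells (median 123, 127 ± 19.7, n = 11), and then at 52.8 to 109 CPM in round (median 71.1) and 13.3 to 47.9 CPM in elongating spermatid-like cells (median 27.0). Sertoli-like cells held Stag3 at 52.5 CPM pooled (6 UMIs, 95% interval 19.2 to 114). This interval holds the medians of round and elongating spermatid-like cells, so neither level was told apart from the background. Stag1 lay at 29.8 to 120 CPM in pachytene-like cells (median 55.4, 64.9 ± 30.0), 8.78 to 24.4 CPM in division-like (median 15.4) and 0 to 19.6 CPM in round spermatid-like cells (median 6.09). All pachytene-like values of Stag1 lay above all division-like ones, while those of Stag3 overlapped. In leptotene/zygotene-like cells both were spread widely, Stag3 at 220, 104, 48.0, 0 and 204 CPM and Stag1 at 0, 104, 144, 202 and 204 CPM in replicates 4, 6, 8, 10 and 11.

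Smc3 and Esco2, which have no meiosis-specific paralog here, took different courses after pachytene-like cells. Smc3, the ATPase common to all rings, was at 110, 0, 528.5, 403 and 852 CPM in the same 5 leptotene/zygotene-like sums, at 12 to 63.7 CPM in pachytene-like cells (median 28.3, 31.9 ± 17.0, n = 9) and at 178 to 559 CPM in division-like cells (median 201, 247 ± 113, n = 11). Every division-like and round spermatid-like value (190 to 407 CPM) lay above every pachytene-like value. Over all kept cells, Smc3 was at 429 and 247 CPM in the enzymatically dissociated wild-type replicates 1 and 2, against 137 to 171 CPM in the mechanical ones. Rec8 (67.3 and 72.1 against 31.8 to 49.8 CPM), Smc1b (909 and 523 against 357 to 512 CPM) and Stag2 (81.4 and 28.1 against 13.8 to 22.4 CPM) were also higher in both. The remaining members did not separate in this way. Wild-type ranges printed here mix both protocols. The part of dissociation in the spread within classes was not tested. Esco2 was at 110, 0, 48.0, 202 and 477 CPM in leptotene/zygotene-like cells and at 5.50 to 45.5 CPM in pachytene-like cells (median 15.6, 19.6 ± 12.9). It was lower still afterwards, with 3.77 CPM pooled in division-like, 1.54 CPM in round and 2.47 CPM in elongating spermatid-like cells.

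Differences between neighbouring classes were tested in 1 edgeR quasi-likelihood fit over all 21166 genes with at least 5 UMIs, on UMIs summed per library and class with the library as a block, with Benjamini-Hochberg adjustment at 0.05. The sums came from 5 spermatogonia-like, 11 leptotene/zygotene-like, 18 pachytene-like and 15 sums of each later class. The 2 scalings used side by side were TMM (the planned one) and library totals (chosen after seeing the data), since TMM moved the median gene by 0.57 on the log2 scale from leptotene/zygotene- to pachytene-like cells, against 0.08 with totals. Directions below are given for members called under both, with the TMM log2 fold change and its standard error (SE) first and the value with totals after it.

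From spermatogonia-like to leptotene/zygotene-like cells, the meiotic ATPase gene Smc1b rose and the mitotic genes Smc1a and Rad21 fell. Of the 10 members 3 were called (5.57% of all genes, 2.46% higher and 3.11% lower), and the same 3 with totals (6.13%). Smc1b rose by 1.11 (SE 0.23, adjusted p = 0.000178 in edgeR's quasi-likelihood test, 1.19 with totals) and was higher in all 5 libraries with both classes, at 1113, 1313, 2434, 2034 and 1088 CPM against the spermatogonia-like values above. Rad21 fell by 2.23 (SE 0.42, adjusted p = 1.84e-05 in the same edgeR test, -2.32 with totals) and was lower in all 5, at 87.3, 35.5, 67.6, 122 and 0 CPM. Smc1a fell by 2.98 (SE 0.78, adjusted p = 0.00506 in the same edgeR test) and was at 0, 17.7, 0, 0 and 0 CPM. Stag3 had a log2 fold change of 1.41 (adjusted p = 0.0647 in the same edgeR test) and Rad21l of 2.47 (adjusted p = 0.144 in it), and neither passed. Stag3 did pass without any 1 of CNP replicate 2, Cul4a replicate 1, Mlh3 replicates 2, 4 and 6 and wild-type replicates 1, 2, 4, 6 and 10 (1.66 to 1.87), and Rad21l without Mlh3 replicate 2 (3.53, adjusted p = 0.0327 in edgeR). Without the Mlh3 libraries, which leaves 2 spermatogonia-like sums, Rad21 (-1.68, adjusted p = 0.0645 in edgeR) and Smc1a (-2.18, adjusted p = 0.291 in edgeR) lost their calls, and Smc1a also did so without Mlh3 replicate 2 (-2.19, adjusted p = 0.124), without Cul4a replicate 1 (-2.33, 0.112), in HiSeq libraries of mechanical dissociation only (-2.20, 0.118) and in DESeq2 (-2.76, 0.0911).

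From leptotene/zygotene-like to pachytene-like cells 5 members fell under both scalings and none rose. TMM called 5 of 10 (23.7% of all genes, 16.6% higher and 7.1% lower) and totals 9 (21.4%). Smc3 fell by 3.06 (SE 0.22, adjusted p = 2.18e-42 in edgeR's quasi-likelihood test, -3.97 with totals) and Esco2 by 2.88 (SE 0.29, adjusted p = 1.00e-21 in the same edgeR test, -3.76 with totals). Stag2 fell by 3.24 (SE 0.66, -4.18 with totals), Rad21l by 5.28 (SE 0.74, -6.25 with totals) and Rec8 by 2.70 (SE 0.89, -3.47 with totals). The Rec8 call rested on the 2 UMIs of wild-type replicate 6: without that library the change was -1.94 (adjusted p = 0.178 in edgeR), and with at least 20 cells per class -2.38 (0.112). The Rad21l call was not made by DESeq2 (-5.68, adjusted p = 0.239). Smc1b (-0.22 with TMM, -1.11 with totals), Smc1a, Rad21 and Stag1 were called lower with totals only, and Stag3 was called under neither (0.55 with TMM, -0.27 with totals). Stag3 was called higher in at least 1 TMM fit with a library left out (0.46 to 0.84 over these fits, lowest adjusted p = 0.0331 in edgeR) and lower in DESeq2 (-0.57, adjusted p = 0.0347).

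**Figure D2:**
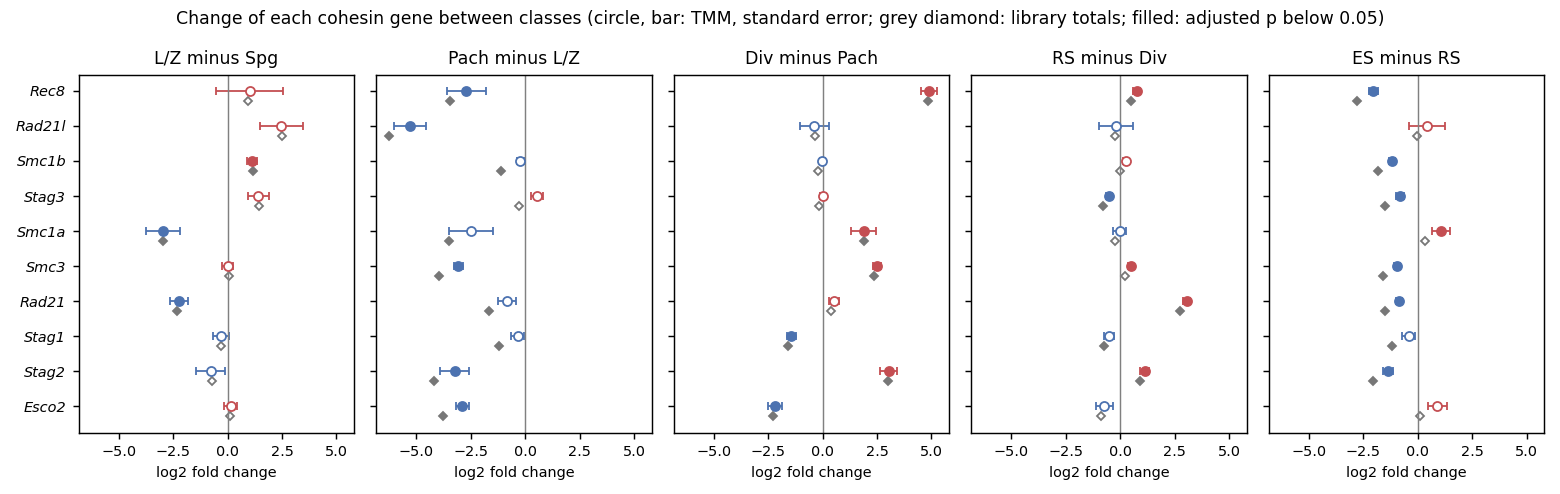
Log2 fold change of each cohesin gene at each step between neighbouring germ cell classes in the edgeR fit with TMM (circles, red above 0 and blue below, with bars of 1 SE), with the value under library totals as grey diamonds and filled symbols where the adjusted p is below 0.05. Classes are abbreviated as in the plot of levels by class. The steps into pachytene-like cells lie mostly below 0, and Rec8, Smc3 and Stag2 lie well above 0 at the step into meiotic division-like cells.

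From pachytene-like to meiotic division-like cells Rec8, Smc3, Stag2 and Smc1a rose and Stag1 and Esco2 fell, 6 of 10 members under both scalings (43.1% of all genes with TMM, 22.7% higher and 20.4% lower, and 43.9% with totals). Rec8 rose by 4.89 (SE 0.35, adjusted p = 5.6e-42 in edgeR's quasi-likelihood test), Stag2 by 3.04 (SE 0.39), Smc3 by 2.49 (SE 0.18) and Smc1a by 1.89 (SE 0.56, adjusted p = 0.00249 in the same edgeR test, 0.0704 in DESeq2). Esco2 fell by 2.18 (SE 0.32) and Stag1 by 1.43 (SE 0.22). Smc1b (-0.01 with TMM, -0.22 with totals) and Stag3 (0.02 and -0.17) were not called, although Smc1b was called higher by TMM without any 1 of wild-type replicates 1 and 2, Mlh3 replicates 2 and 6 and CNP replicate 2 (0.29 to 0.31). Rad21 lay at the threshold (0.53, SE 0.23, adjusted p = 0.0523 in the same edgeR test) and passed or missed it with the libraries included.

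The step to round spermatid-like cells brought back the mitotic kleisin gene. Of the 10 members TMM called 5 (46% of all genes, 22.8% higher and 23.2% lower) and totals 5 (50.3%), with 4 in common. Rad21 rose by 3.06 (SE 0.16, adjusted p = 2.47e-79 in edgeR's quasi-likelihood test, 2.76 with totals), Stag2 by 1.12 (SE 0.20, 0.89 with totals) and Rec8 by 0.76 (SE 0.16, 0.52 with totals). Stag3 fell by 0.51 (SE 0.15, -0.77 with totals), a call not made with DESeq2's size factors (-0.20, adjusted p = 0.265 in edgeR). Smc1b had no stable direction (0.25 with TMM, -0.01 with totals). Toward elongating spermatid-like cells 7 members were called (34.8%, 7 and 39.9% with totals), and 6 fell under both scalings: Rec8 by 2.02 (SE 0.20), Stag2 by 1.36, Smc1b by 1.17, Smc3 by 0.94, Rad21 by 0.85 and Stag3 by 0.81. The median gene moved by 0.16 with TMM and -0.44 with totals at this step. The TMM call of Smc1a (1.08) was lost with totals (0.35, adjusted p = 0.533 in edgeR), in wild-type libraries only (0.03, 0.987) and without Cul4a replicate 2 (0.06, 0.966).

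A share within a family of paralogs does not depend on the library total, so the switch was also followed as the percentage of UMIs that came from the meiotic paralog, in libraries with at least 10 cells and 5 UMIs of the family in both classes. Because capture at the 3′ end can differ between paralogs, shares were compared between classes and not read as protein ratios. Steps were tested by flipping the signs of each library's difference in a two-sided exact permutation test, adjusted over 13 tests.

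For the SMC1 pair, the Smc1b share was 84.6, 90, 72.5, 86.7 and 100% in the spermatogonia-like cells of 5 libraries (Cul4a replicates 1 and 2, Mlh3 replicates 2, 5 and 6), and 75.4% in the sorted spermatogonia. In leptotene/zygotene-like cells of the same 5 libraries it averaged 99.7%, against 86.8% before, higher in 4 and at 100% in both classes in 1 (exact permutation p = 0.125, adjusted p = 0.232). It was 100% in all 9 wild-type pachytene-like sums. Into division-like cells the share fell by 0.668 percentage points (lower in 10 of 13 libraries, exact permutation p = 0.00195, adjusted p = 0.00846). From a pachytene-like mean of 99.98% it could hardly rise, so the direction was close to fixed in advance and no change is read from this test. Somatic cells pooled over strains stood at 70.4% (Leydig-like) and 89.7% (Sertoli-like, 95% Wilson interval 84.9 to 93.1), against 84.4% (79.2 to 88.5) in spermatogonia-like cells, whose interval overlaps the Sertoli-like one and lies above the Leydig-like one (64.9 to 75.4).

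For the STAG trio, the Stag3 share was lower in spermatogonia-like (21.0 ± 11.7%, SD, n = 5) than in leptotene/zygotene-like cells (49.0 ± 7.71%) in each of 5 libraries, with the smallest p that 5 pairs allow (exact permutation p = 0.0625, adjusted p = 0.135). In 6 libraries it went from 44.7% to 65.3% in pachytene-like cells, higher in 5 of 6 (exact permutation p = 0.0625, adjusted p = 0.135). Neither step passed. Pooled over the 4 strains, somatic cells had a Stag3 share of 42.6% (Sertoli-like, 95% Wilson interval 33.0 to 52.6) and 32.2% (Leydig-like, 25.9 to 39.3), so the leptotene/zygotene-like share (43.9%, 35.1 to 53.0) is not above this background, the spermatogonia-like share (17.2%, 11.4 to 25.1) lies below it and the pachytene-like share (64.4%, 62.3 to 66.4) above it. In wild-type the share stood at 68.1 ± 9.12% (n = 9) in pachytene-like and 76.2 ± 5.78% (n = 11) in division-like cells, and fell to 63.5 ± 8.18% in round spermatid-like cells. That step, tested over 15 libraries of 3 strains, averaged -14.6 percentage points and was downward in 14 of 15 (permutation p = 0.000183, adjusted p = 0.00159).

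The kleisin share, Rec8 plus Rad21l against Rad21, was high in leptotene/zygotene-like and again in division-like cells. Pooled over the 4 strains it was 5 of 88 UMIs in spermatogonia-like cells (5.68%), 26 of 48 in leptotene/zygotene-like (54.2%, 95% Wilson interval 40.3 to 67.4), 15 of 202 in pachytene-like (7.43%), 514 of 764 in division-like (67.3%) and 954 of 2458 in round spermatid-like cells (38.8%). Of the 26 meiotic kleisin UMIs in leptotene/zygotene-like cells 18 were Rad21l, of which 13 came from Cul4a libraries, and the 8 in wild-type cells were split evenly, 4 of each gene. In division-like cells almost all were Rec8. The last steps passed: from 69.2% in division-like to 32.9% in round spermatid-like cells (lower in 13 of 14 libraries, permutation p = 0.000244, adjusted p = 0.00159) and from 32.7% to 18.5% in elongating spermatid-like cells (lower in 11 of 14, permutation p = 0.00598, adjusted p = 0.0194). Sertoli-like cells had a share of 19.5% (17 of 87 UMIs, 95% Wilson interval 12.6 to 29.1) over the 4 strains and 30.8% (4 of 13, 12.7 to 57.6) in wild-type, and Leydig-like cells 10% (7 of 70), so the elongating spermatid-like share is at this background. Over the 4 strains the round spermatid-like interval (36.9 to 40.8) lies above the Sertoli-like one, but not in wild-type alone (28.3%, 25.9 to 30.9). These pools are unlike, since the Sertoli-like one includes Mlh3 cells (3 of 42 UMIs), a strain without round spermatid-like cells. By library the round spermatid-like share was 47.8 and 54.3% in Cul4a and 23.1 and 21.4% in CNP. A round spermatid-like share above background is therefore not read from the pooled values. From pachytene- to division-like cells the share went from 6.73% to 59.4% in 3 libraries, all upward, where the smallest exact permutation p is 0.25 (adjusted p = 0.295). The 2 Cul4a libraries alone had enough kleisin UMIs at the early steps, at 9.1 and 0% in spermatogonia-like, 50 and 77.8% in leptotene/zygotene-like and 5.6 and 14.6% in pachytene-like cells.

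**Figure D3:**
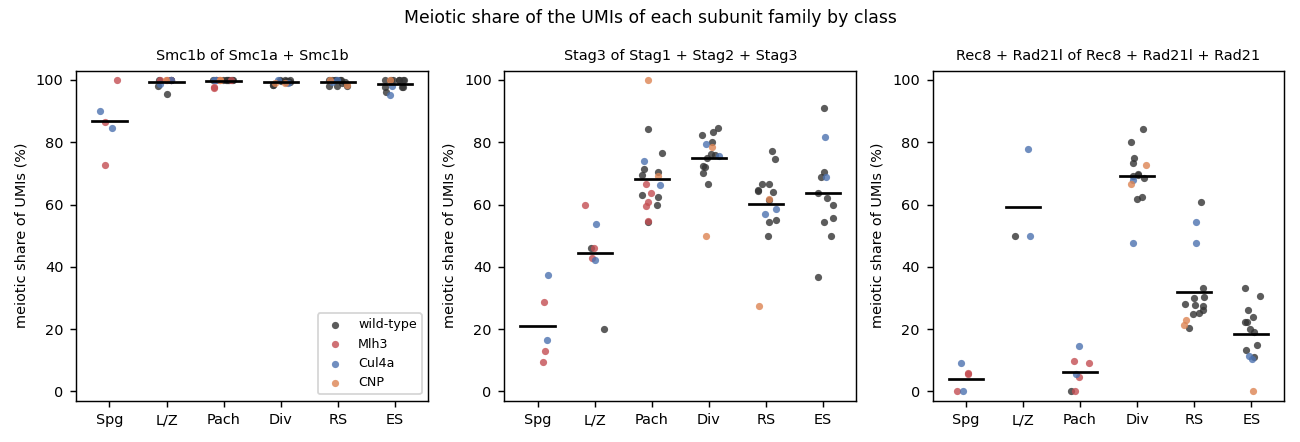
Percentage of UMIs from the meiotic paralog (Smc1b of SMC1, Stag3 of STAG, Rec8 plus Rad21l of kleisin genes) in each germ cell class, with 1 point per library of at least 10 cells and 5 UMIs of the family, coloured by strain, and a line for their mean. The SMC1 share is at or near 100% from leptotene/zygotene-like cells on, and the kleisin share is low in pachytene-like cells and has its highest mean in division-like cells.

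The other sorted populations were shallow and gave a coarse view. In the library labelled primary spermatocytes (107117 UMIs), Smc1b gave 40 UMIs (373 CPM) and Stag3 10 (93.4 CPM), and Rad21l, Smc1a and Esco2 were at 0, which allows up to 28 CPM. In the library labelled secondary spermatocytes (262054 UMIs) Rec8 was at 68.7 CPM, Rad21 at 134 CPM, Smc3 at 122 CPM and Smc1b at 225 CPM. The sorted spermatids (237167 UMIs) held Rec8 at 33.7 CPM (8 UMIs), Rad21 at 75.9 CPM, Smc3 at 152 CPM and Smc1b at 202 CPM. In the first of these 3 libraries red blood cell-like barcodes held 49.8% of the UMIs of filtered cells and pachytene-like ones 12.7%.

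In whole testes, counted over every deposited barcode, Rec8 was lower and Stag1, Smc1a, Esco2 and Rad21l were higher in Mlh3-/- than in wild-type libraries, against a background in which 61.3% of 23386 genes were called. Rec8 was at 32.1 to 71.5 CPM (median 40.7) in the 11 wild-type libraries and at 0.315 to 3.68 CPM (median 1.12) in the 6 Mlh3 libraries, without overlap. Stag1 was at 13.2 to 25.7 CPM (median 19.9) against 67.6 to 155 CPM (median 84.5), Smc1a at 0 to 5.62 CPM (median 3.62) against 18.0 to 102 CPM (median 27.9) and Esco2 at 2.80 to 9.50 CPM (median 6.26) against 19.6 to 66.6 CPM (median 24.7). These 3 and Rad21l (0 to 1.04 CPM against 1.42 to 6.91 CPM) were higher in every Mlh3 library than in any wild-type one. The Rad21l values rest on few UMIs, with 1 in Mlh3 replicate 2 and 4 in wild-type replicate 11. Wild-type replicate 1 held 0 among 357235 UMIs, a coarse limit, so the lack of overlap of Rad21l is not read as a separation. The share of all genes that separated the groups without overlap was not counted. The lack of overlap is therefore not read as particular to these members.

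The edgeR quasi-likelihood test over the 21 whole-testis libraries called 7 of the 10 members with TMM (61.3% of all genes) and 6 with totals (65.2%), shares near those of all genes. Of these members 5 were called under both scalings. TMM called 7 without Mlh3 replicate 2 and 8 without replicate 3, the pair of equal age. Rec8 fell by 5.57 on the log2 scale (SE 0.34, adjusted p = 2.84e-15 in edgeR), and Smc1a rose by 3.02 (SE 0.31, adjusted p = 6.20e-10), Rad21l by 2.02 (SE 0.52, adjusted p = 0.00137), Esco2 by 1.75 (SE 0.24, adjusted p = 1.51e-07) and Stag1 by 1.72 (SE 0.17, adjusted p = 1.54e-10). The median gene moved by 0.16 with TMM and 0.62 with totals, and the call of Rad21l was lost among the cells that passed the filters (1.22, adjusted p = 0.109 in edgeR). Among these cells the change of Smc1a was 1.91 (adjusted p = 0.000124 in edgeR), at 3.62 to 80.0 CPM in Mlh3 and 0 to 5.64 CPM in wild-type libraries, which overlap, that of Rec8 was -6.28, and Stag2 was called lower (-1.04, adjusted p = 0.0156 in edgeR). In Mlh3 replicate 3, where 11.1% of barcodes were kept, Smc1a was at 25.6 CPM in the kept and 125 CPM in the removed barcodes, and without that library the changes were 2.27 for Smc1a, 1.38 for Rad21l and -6.34 for Rec8. The groups did not overlap among kept cells for Rec8, Stag1 and Esco2, which was again not counted over all genes. Smc3 (-1.02) and Rad21 (-0.88) were called lower with TMM only (-0.47, adjusted p = 0.113, and -0.35, 0.168, with totals), and Stag3 higher with totals only (0.45, 0.0160, against -0.08). Smc1b was at 362 to 907 CPM in wild-type and 312 to 783 CPM in Mlh3 libraries (-0.30, adjusted p = 0.158), overlapping throughout, and was called lower in HiSeq libraries of mechanical dissociation only (-0.36, adjusted p = 0.0208 in edgeR). At least 1 other alternative and at least 1 fit with a library left out also called Smc1b lower, with changes down to -0.53 in either set. Stag2 was not called (-0.03), but without Mlh3 replicate 3, whose 71.8 CPM stood apart, it was lower (-0.79, adjusted p = 0.0109 in edgeR). Over a whole testis, fewer cells of a type and less RNA per cell cannot be told apart: Mlh3 testes lacked round spermatid-like cells and held 31 division-like cells, the classes where the pooled wild-type Rec8 level was highest.

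**Figure D4:**
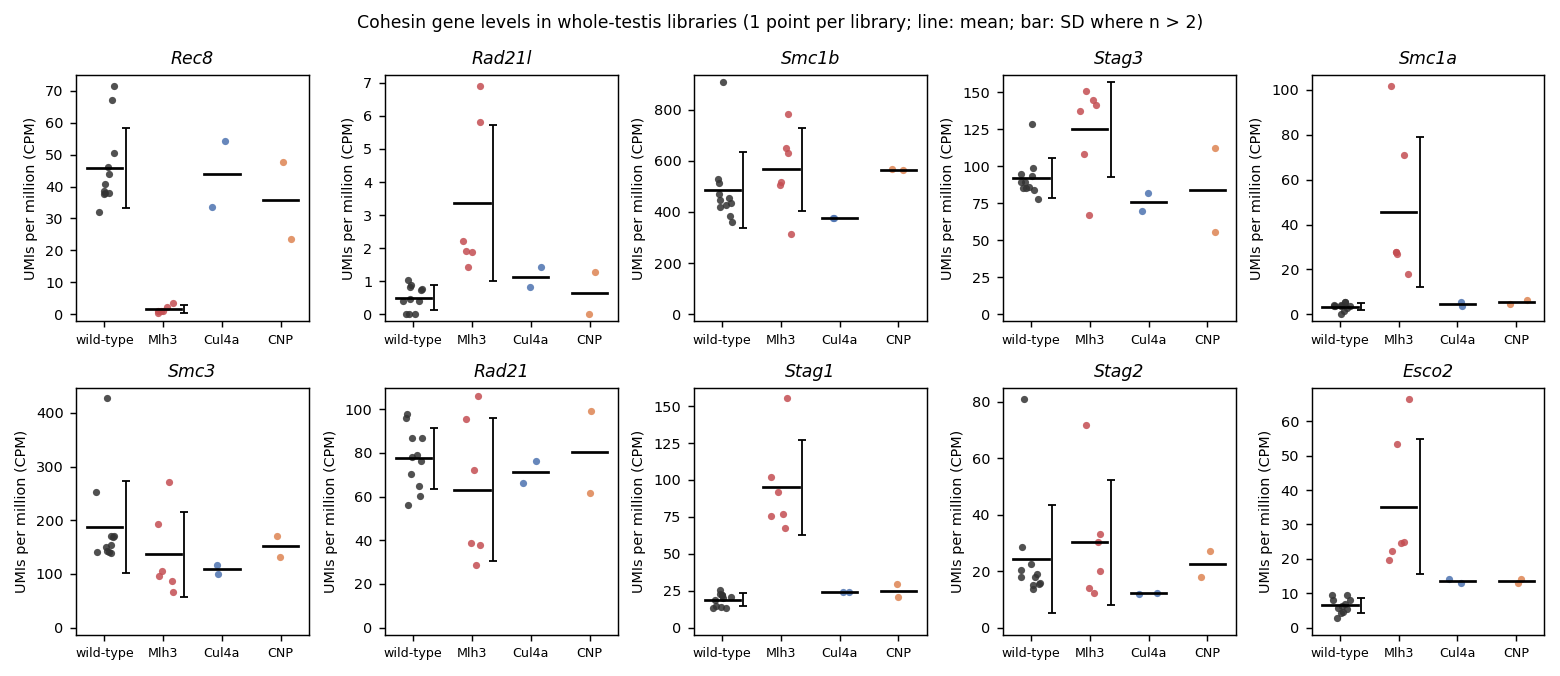
CPM of the 10 cohesin genes over every deposited barcode of a library (linear axes), 1 point per whole testis in 4 groups (wild-type 11, Mlh3 6, Cul4a 2, CNP 2), with a line for each group mean and, for wild-type and Mlh3, a bar of 1 SD to each side. The Mlh3 points of Rec8 lie below and those of Smc1a, Stag1, Esco2 and Rad21l above all wild-type points, in a comparison where 61.3% of all genes were called. The Rad21l points rest on as few as 1 UMI in an Mlh3 library.

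Within pachytene-like cells, which both strains hold, fewer members were called. Of the 10 members only Stag1 was, upward (10.7% of 15444 genes, 4.54% higher and 6.15% lower), at 29.8 to 120 CPM in 9 wild-type libraries and at 83.8, 92.5, 95.1, 105 and 103 CPM in Mlh3 replicates 1, 3, 4, 5 and 6, which overlap (log2 fold change 0.71, SE 0.23, adjusted p = 0.0298 in edgeR's quasi-likelihood test). The call was lost without wild-type replicate 6 (0.61, 0.0824), wild-type replicate 10 (0.64, 0.0697) or Mlh3 replicate 6 (0.64, 0.0864), and DESeq2 called no member. Rec8 was at 0 in all 5 Mlh3 sums, as in 8 of the 9 wild-type ones. At least 1 alternative fit called it lower (-2.95 to -2.03 over the alternatives, lowest adjusted p = 0.0405 in edgeR). Mlh3 itself was lower in these cells, as its label says (-1.41, SE 0.20, adjusted p = 1.64e-08 in the same edgeR test). Smc1a was at 10.5, 16.8, 0, 1.08 and 0.50 CPM in the Mlh3 sums, against 0 in the 9 wild-type ones (log2 fold change 3.25, adjusted p = 0.203 in edgeR), a fitted value as large as that over whole testes (3.02) that was not called. Rad21l, at 0, 0, 2.44, 1.08 and 0.99 CPM against 0 in all 9 (2.65, adjusted p = 0.286), and Stag2 (2.06, adjusted p = 0.270) were not called either. These 3 rest on a few UMIs against a group at or near 0, where a fitted fold is no bound. The Mlh3 Leydig-like cells held Smc1a at 75.2 CPM (64 UMIs) and Sertoli-like cells at 65.7 CPM (16 UMIs). The part of those somatic cells in the whole-testis difference was not tested.

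In the testes labelled Cul4a-/- and in CNP testes few members differed from wild-type by more than the spread between libraries. In whole testes 0 of 10 members were called in Cul4a (2.06% of genes) and 0 in CNP (0.543%, 0.0812% higher and 0.462% lower) by edgeR or by DESeq2, while 3710 and 2265 of all genes had an unadjusted p below 0.05. Esco2 was at 14.2 and 12.9 CPM in Cul4a, above the wild-type range of 2.80 to 9.50 CPM (0.98, adjusted p = 0.0996 in edgeR), and at 12.9 and 14.2 CPM in CNP (0.86, adjusted p = 0.524 in edgeR). Rec8 was at 33.5 and 54.4 CPM in Cul4a and 47.7 and 23.7 CPM in CNP. Within Cul4a pachytene-like cells none was called (1.13% of genes, 1% higher and 0.13% lower, 1881 with an unadjusted p below 0.05). Within round spermatid-like cells 2 of the 9 members tested were called, 1 in each direction (16.1% of genes, 10.3% higher and 5.74% lower): Rad21 at 106 and 119 CPM against 63.8 to 258 CPM in wild-type (-0.79, SE 0.24, adjusted p = 0.0124 in edgeR) and Rec8 at 97.1 and 141 CPM against 62.4 to 99.3 CPM (0.61, SE 0.21, adjusted p = 0.0280 in edgeR). Both values overlap wild-type in at least 1 library, and neither call survived leaving out either Cul4a library (adjusted p from 0.0609 to 0.634 in edgeR), where the lone sample is taken to vary like the others. Rad21 also lost its call without wild-type replicate 7 (-0.67, adjusted p = 0.0556 in edgeR).

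Of 38 other listed genes, 37 were found. Most load, acetylate, protect, cleave or accompany cohesin, but 14 belong to other SMC complexes such as condensin. Counts over this list are therefore not counts of cohesin partners alone. In leptotene/zygotene- against spermatogonia-like cells 6 rose and 1 fell under both scalings (2.46% and 3.11% of all genes with TMM), among them all 3 axis genes, Sycp2 (2.86, SE 0.26), Sycp3 (2.76, SE 0.24) and Hormad2 (2.44, SE 0.58), the loader gene Nipbl (1.69, SE 0.27), the condensin gene Smc4 (1.70, SE 0.22) and the kinase gene Bub1 (1.38, SE 0.32). Toward pachytene-like cells TMM, on whose scale the median gene moved by 0.57, called 14 higher and 4 lower (16.6% and 7.1% of all genes), and totals called 3 higher and 8 lower (7.17% and 14.2%), so the balance of the list turned with the scaling. Higher under both were Gsg2, which encodes the kinase haspin (1.89 with TMM, 1.06 with totals), Nsmce1 (2.22 and 1.44) and Pttg1, which encodes securin (1.88 and 1.11), and Sycp3 was lower under both (-0.79 and -1.71). The TMM calls of Smc4 (1.05) and Smc6 (1.17) were lost with totals (0.15, adjusted p = 0.432, and 0.33, adjusted p = 0.143, in edgeR).

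At the division step TMM called 11 higher and 16 lower (22.7% and 20.4% of all genes) and totals 7 and 20 (20.4% and 23.4%). Under both, Ccnb1, cyclin B1 (3.58, SE 0.21), Plk1, the polo-like kinase (3.24, SE 0.20), and Gsg2 (1.41) rose, and Sycp2 (-2.15), Sycp3 (-2.16) and Smc4 (-1.12) fell. Ccnb1 and Plk1 were among the markers that named division-like clusters, so their rise here and fall at the next step were partly fixed by the naming. Only the cohesin members were left out of clustering, so the other listed genes could also shape the classes. Into round spermatid-like cells 27 of 37 fell under both scalings and none rose under either (23.2% of all genes lower and 22.8% higher with TMM), including Cdk1 (-3.26, SE 0.22), the centromeric protector gene Sgol2 (-2.36, SE 0.19), Pttg1 (-1.92), Plk1 (-1.91), Sycp3 (-1.80) and Ccnb1 (-1.63), a step at which Rad21, Stag2 and Rec8 rose. Toward elongating spermatid-like cells TMM called 7 higher and 10 lower (19.5% and 15.2% of all genes), and totals none higher and 16 lower (8.17% and 31.7%). The same 10 were lower under both, with Smc2 (-1.74), Ccnb1 (-1.34), Bub1 (-1.24), Smc5 (-0.99) and Nsmce1 (-0.82) among them on the TMM scale. The TMM call of Sycp3 (1.2) was lost with totals (0.49, adjusted p = 0.494 in edgeR).

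In whole Mlh3 testes 20 of the 37 were higher and 6 lower with TMM (32.7% and 28.6% of all genes), and 30 and 5 with totals (43.2% and 22% of all genes), with 20 and 5 called the same way under both, including Ncaph2 (1.53), Sycp2 (1.44), the acetyltransferase gene Esco1 (1.34) and the release cofactor gene Pds5b (1.26) among the higher and Plk1 (-1.63) and Gsg2 (-1.60) among the lower. Within pachytene-like cells none of the 35 tested was called in Mlh3 (10.7% of all genes) or in Cul4a (1.13%) by edgeR. In whole Cul4a testes only Ncaph2 was called (0.96, SE 0.24, adjusted p = 0.0227 in edgeR, 2.06% of all genes), in CNP none with TMM (0.543% of all genes) and Sycp3 with totals (1.24, adjusted p = 0.0173 in edgeR). In Cul4a round spermatid-like cells 4 of the 36 tested rose under both scalings (10.3% of all genes higher with TMM): 4930404A10Rik, the gene of MEIKIN (1.21), Pttg1 (0.89), Ccnb1 (0.76) and Bub1 (0.75).

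The genes whose level over 10 named classes was most like that of a member were listed as a description, from log2(CPM + 20) among 11709 genes with at least 100 UMIs, classes that share libraries and depth. For Rec8 they were Pde4a (Pearson r = 0.984), Tmc7 (0.976) and Nat6 (0.974), for Stag3 Atf7ip2 (0.970), Nuf2 (0.947) and Cand1 (0.945), and for Smc1b Asf1a (0.899), Bub1 (0.894) and Skiv2l2 (0.893). Rad21l, with 26 UMIs in these cells, was too low for this.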

How the data were processed

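Whole or sorted testis cells were profiled by Drop-seq. Per the submitters' processing notes the authors used bcl2fastq, STAR 2.5.3a and mm10, in the Drop-seq pipeline, and deposited UMI counts per gene for the barcodes they chose, without normalization, with 107117 to 9745302 counts per library. The 10 genes and all lists were chosen with earlier results of these data known.

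Cells with at least 200 UMIs and 50 genes (44404 of 48642), not far below the mean of their library (44340) and at a scaled mt-Rnr2 level of at most 2 (36619, of which 2786 of 11210 Mlh3 and 25052 of 26123 wild-type barcodes) were clustered on 19371 genes without the 10 members (square root of each gene's share of the cell, scaled and capped at 10, 40 principal components, 20 neighbours, Leiden resolution 2). Clusters of at least 20 cells were named "-like" from listed markers, with at least 3 markers and 50 genes at 2-fold. Counts were summed per library, or per library and class with at least 10 cells, and fitted over genes with at least 5 counts by edgeR's quasi-likelihood test with TMM and Benjamini-Hochberg adjustment, all strains in 1 fit. A library was a replicate. Where nothing says that samples are separate cultures, p-values measure the spread between these libraries. On simulated counts, TMM shifted fold changes of the step from leptotene/zygotene- to pachytene-like sums, so library totals are printed beside it. Class steps used the library as a block, and Mlh3 libraries entered them only with their spermatogonia-, leptotene/zygotene- and pachytene-like sums. In the fits over classes that leave out a library, the trend of the spread was kept from all libraries. The SE is the log2 fold change divided by the root of the F statistic. All members, the 6 other listed genes with the smallest adjusted p per comparison, the 3 genes of the most similar pattern to each meiotic subunit and the disrupted genes are named. Of the 38 other listed genes 37 matched, Wapl as Wapal by RefSeq synonyms, and Eid3 did not. Limits at a count of 0 use 3 counts of the sum shown, and intervals cover counting error only. No doublet caller was run, and another mutant strain of the study was not analysed here.

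Gene loci are from GENCODE vM21 (GRCm38) and promoters from RefSeq, where 7 of the 10 members had an entry and Rad21, Stag2 and Esco2 had none. Alternatives were DESeq2, its size factors in edgeR, other filters on counts and cells, Leiden resolution 1, platform and dissociation terms, subsets of libraries and strains, a replicate block and each library left out. Tests ran in R 4.3.3 (edgeR 4.0.16, limma 3.58.1, DESeq2 1.42.0), and clustering in Python 3.11.15 (scanpy 1.11.5, leidenalg 0.10.2, pandas 2.3.3, numpy 2.4.6, scipy 1.17.1).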

Additional observations from a re-analysis of the deposited data

Results flagged for a closer look

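Of 32 groups of 4 to 10 libraries tested, 6 held a library that stood apart from its group by Dixon's criterion. Its chance rate of about 5% of groups holds for normally distributed values. Where all libraries but 1 are at 0, the criterion flags that library whatever its count. The 6 are therefore not read as more than chance gives. In whole Mlh3 testes, Stag2 was at 71.8 CPM in replicate 3, with the next library at 33.3 CPM (n = 6). In wild-type leptotene/zygotene-like cells (n = 5), Rec8 was at 208 CPM in replicate 6, with the next at 34.1 CPM, and Rad21l and Rad21 were at 102 and 136 CPM in replicate 11, with the other 4 libraries at 0 for both. In wild-type pachytene-like cells (n = 9), Rec8 was at 5.54 CPM in replicate 4 and Stag2 at 7.80 CPM in replicate 7, with the other 8 libraries at 0. Apart from Stag2 in Mlh3 replicate 3, these values rest on 1 to 4 UMIs in a library. Over 80 pairs of strains and steps compared, 0 had all libraries of 1 strain moving one way and all libraries of the other the opposite way.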

How the results depend on the processing

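From leptotene/zygotene- to pachytene-like cells 9 members in place of 5 were called by DESeq2, by edgeR with DESeq2's size factors and with library totals (chosen after seeing the data, 21.4% of all genes called). For the other alternative fits here and below, the share of all genes called is not printed. Their counts of members are therefore not set against such a share. From spermatogonia- to leptotene/zygotene-like cells 5 in place of 3 were called with filterByExpr. In Mlh3 pachytene-like cells 0 in place of 1 were called by DESeq2, with its size factors, with cells filtered by UMIs and genes alone and with the replicate block. In Cul4a round spermatid-like cells 0 in place of 2 were called at Leiden resolution 1 and with cells filtered by UMIs and genes alone, and 1 with the replicate block. Of the 37 other listed genes, library totals called 3 higher in place of 14 and 8 lower in place of 4 into pachytene-like cells, 7 higher in place of 11 into division-like cells, and 0 higher in place of 7 and 16 lower in place of 10 into elongating spermatid-like cells. The Stag3 share passed at 2 steps where it had not: by 26.7 points (adjusted exact permutation p = 0.0391) with at least 3 UMIs and 23.8 (0.0234) with cells filtered by UMIs and genes alone into pachytene-like cells, and by 17.9 (0.00146) at Leiden resolution 1 and 9.34 (0.0476) with that filter into division-like cells. The kleisin share into division-like cells passed with at least 3 UMIs (59.1, 0.0117). The cause was not tested for any of these.

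Directions turned for the Stag3 share into elongating spermatid-like cells (-2.26 at Leiden resolution 1) and for these log2 fold changes: Stag3 into pachytene-like cells (-0.57 in DESeq2), Smc1a into elongating spermatid-like cells (-0.18 at Leiden resolution 1), Rad21 in Cul4a round spermatid-like cells (0.094 with the replicate block), Stag3 in whole Mlh3 testes (0.45 with library totals) and Smc1b into division-like cells (-0.01 with all libraries, 0.28 with at least 20 cells, and -0.046 to 0.31 with each library left out). A further 81 fold changes, and 70 with 1 library left out, changed sign without being called in either fit.

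With each library left out, the counts of called members were 7 to 8 in whole Mlh3 testes, 0 in whole Cul4a and CNP testes and Cul4a pachytene-like cells, 0 to 1 in Mlh3 pachytene-like and 0 to 3 in Cul4a round spermatid-like cells, and 3 to 4, 4 to 6, 6 to 8, 5 to 6 and 6 to 8 at the 5 class steps in order. The SMC1 share moved by 9.35 to 16.2, 0.316 to 0.836, -0.725 to -0.579, -0.122 to 0.130 and -0.916 to -0.408 points at these steps, the STAG share by 25.7 to 33.8, 17.8 to 24.8, 3.42 to 7.06, -16.0 to -14.0 and -2.11 to 3.02, and the kleisin share at the last 3 by 52.7, -39.1 to -35.2 and -15.9 to -11.8.

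Replicate numbers are shared by the groups but nothing ties them to a litter or day: 10 same-numbered pairs correlated at -0.158 to 0.133 and 2 of 10 samples correlated best with their own number. The replicate block gave 7 called members in whole Mlh3, 2 in whole Cul4a (Smc3, -1.36, adjusted p = 0.0316 in edgeR, and Stag2, -1.55, adjusted p = 0.0273), 0 in whole CNP testes and 0 in Cul4a pachytene-like cells. The shares of all genes called with this block are not printed, so these counts are not read as a result about the members. Leiden resolution 1 gave no leptotene/zygotene-like class, wild-type libraries alone no spermatogonia-like sums, and DESeq2 no adjusted p for Rad21l at the first class step, so these give no value. Of the named germ cell classes of wild-type testes, the 29 spermatogonia-like (45343 UMIs) and 107 leptotene/zygotene-like cells (115228 UMIs) held the fewest UMIs. In the latter, 1 UMI was worth 34.1 CPM in wild-type replicate 11, the deepest of these sums.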
